A study of Homo sapiens with 24 samples.

Results

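Described here are 9 genes of the type I interferon signalling chain, chosen by name: the receptor subunits IFNAR1 and IFNAR2, the kinases JAK1 and TYK2, the transcription factors STAT2, STAT3 and IRF9, and the inhibitors SOCS1 and SOCS3. All 9 were among the 60609 gene rows of the deposited table and among the 16062 genes tested. The samples were A549 cells, a human lung adenocarcinoma line. They were transfected for 48 h with a pool of siRNAs against BOP1 (siBOP1), a ribosome biogenesis factor, or with an siRNA against firefly luciferase (siFLuc), a gene human cells lack. Treatment followed for 8 h or 12 h: either mock, or 1000 U/mL of interferon beta (written IFN below). The 8 groups, each of 3 libraries of polyadenylated RNA, were siFLuc mock 8 h, siFLuc IFN 8 h, siFLuc mock 12 h, siFLuc IFN 12 h, siBOP1 mock 8 h, siBOP1 IFN 8 h, siBOP1 mock 12 h and siBOP1 IFN 12 h. All 24 libraries come from transfected cells, so none shows the untransfected state.

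Type I interferon binds a receptor made of IFNAR1 and IFNAR2, whose tails carry the kinases TYK2 and JAK1. The kinases phosphorylate STAT proteins. STAT2 joins another STAT and IRF9 in the ISGF3 complex, which binds interferon-stimulated response elements (ISREs) near its target genes. STAT dimers bind a different element, the gamma-activated site (GAS). SOCS1 and SOCS3 are induced inhibitors that act on receptors and kinases. The chain is used by nearly all nucleated cells, lung epithelium included, as an antiviral response.

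Levels are given in TPM (transcripts per 1000000), a share of each library's total scaled by transcript length. A change in TPM does not tell a change in every cell from a change in the share of responding cells. Between 13844 and 14509 genes reached 1 TPM in a library, and the sequencing depth is unknown. BOP1 itself was at 28.1% and 23.5% of its siFLuc level in siBOP1 mock cells at 8 h and 12 h, and at 29.6% and 24.1% under IFN, with no overlap between groups. All 10 A549 and epithelial markers listed reached 1 TPM in all 24 libraries, with a summed level of 17911 to 20819 TPM, and CDKN2A, deleted in A549, was at 0 in all 24. Of leukocyte markers, CD3E was at 0 in all 24 and CD14 at 1.81 to 5.26 TPM. In sum, 4 fibroblast markers came to 5.39 to 19.3 TPM and 3 endothelial markers to at most 0.426 TPM. In each group the columns are numbered 1, 2 and 4. The libraries numbered 4 stood apart. Against the mean of the libraries numbered 1 and 2, 17.3% of the genes tested differed at 8 h and 40.3% at 12 h (limma with terms for group and column number, adjusted p under 0.05). The values of each library are therefore given by number below.

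In mock cells STAT3 and JAK1 were the highest of the 9 genes, and STAT2 and SOCS1 the lowest. Over the 12 mock libraries STAT3 was at 87.0 ± 17.4 TPM (SD, n = 12), JAK1 at 86.6 ± 9.87, TYK2 at 31.1 ± 4.83, SOCS3 at 30.5 ± 24.6, IFNAR1 at 27.5 ± 3.38, IRF9 at 23.6 ± 6.43, IFNAR2 at 17.1 ± 2.20, STAT2 at 9.80 ± 2.09 and SOCS1 at 0.815 ± 0.968. Under IFN the order changed. IRF9 was at 168 ± 12.7 TPM and STAT2 at 166 ± 22.6 (SD, n = 12 each), above STAT3 at 119 ± 19.0 and JAK1 at 74.1 ± 8.65. SOCS3 was at 40.2 ± 17.9, TYK2 at 29.4 ± 7.12, IFNAR1 at 21.7 ± 4.84, IFNAR2 at 21.03 ± 5.44 and SOCS1 at 20.4 ± 4.74. Neighbours in the mock order overlapped except JAK1 and TYK2, IFNAR2 and STAT2, and STAT2 and SOCS1. In the IFN order STAT3, from 91.8 to 158 TPM, stood apart from JAK1, from 60.9 to 88.9, and all other neighbours overlapped.

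**Figure D1:**
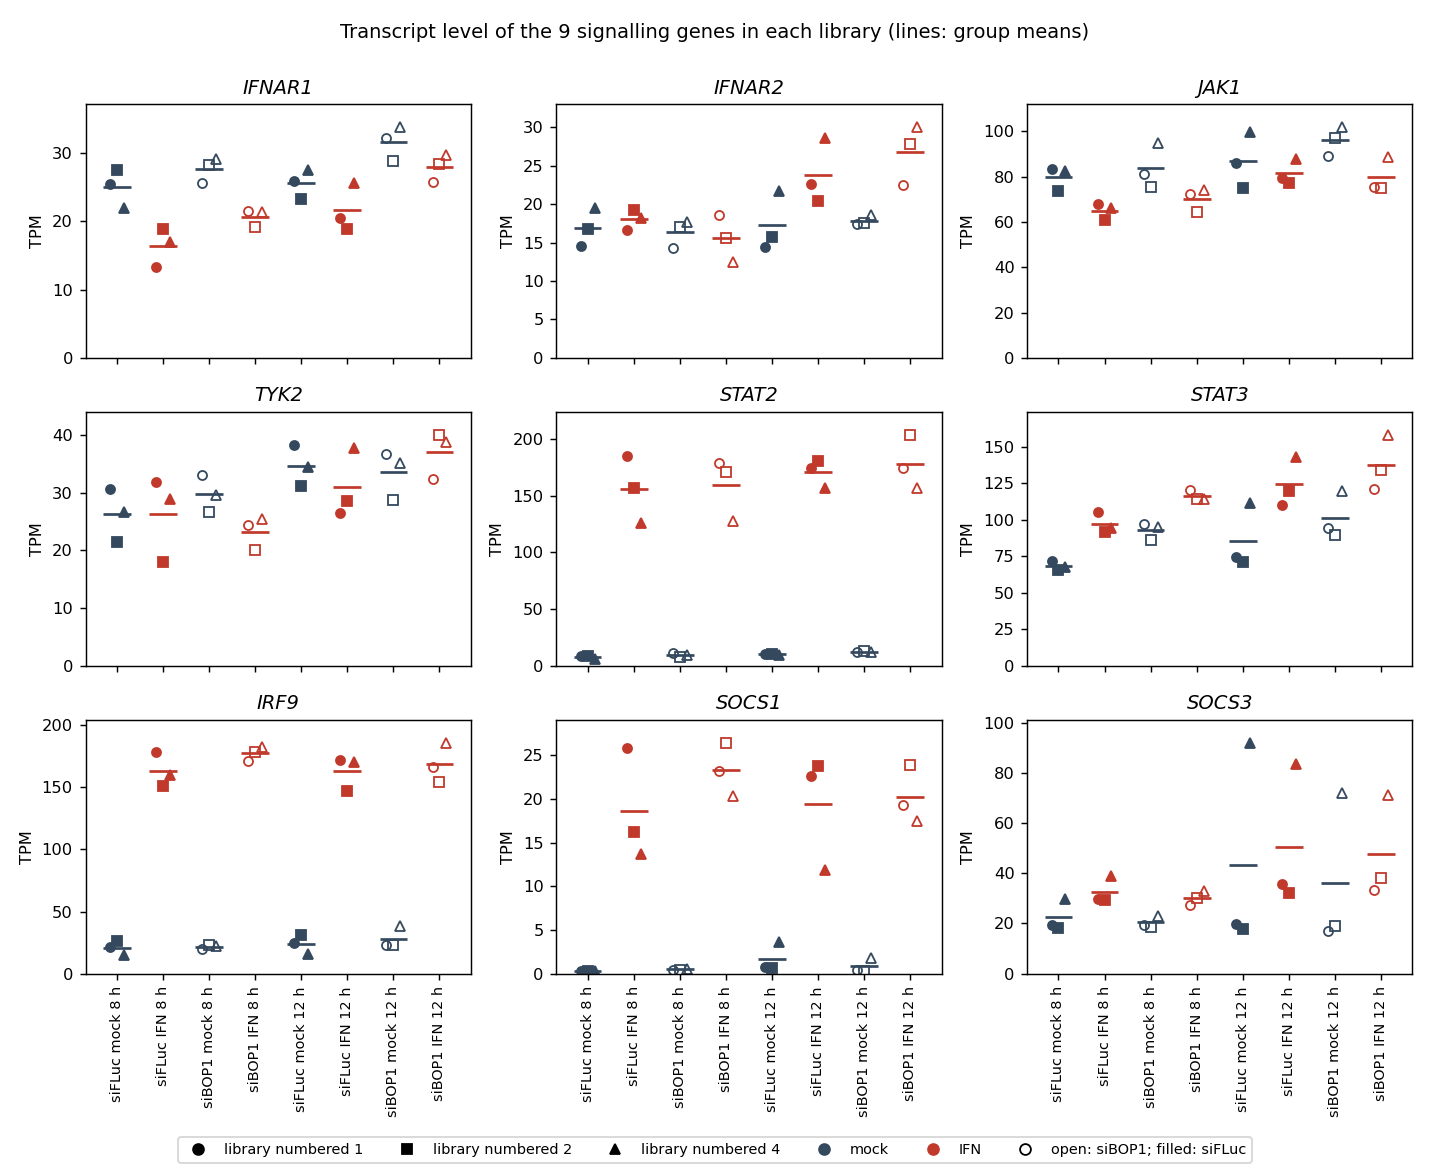
TPM of each gene (vertical axes, from 0) in the 24 libraries by group (horizontal axes). Lines are group means, marker shapes are column numbers, red is IFN, and open markers are siBOP1. STAT2, IRF9 and SOCS1 have no overlap between mock and IFN libraries, while the 12 h SOCS3 libraries numbered 4 lie between 71.1 and 91.8 TPM, above all others.

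The question put to each gene was whether IFN changed it, with each siRNA and at each time. Tests were made with limma on log2(TPM + 1), adjusted over all genes tested, and a change is named only where the adjusted p was under 0.05. Nothing in the labels says that the libraries of a group came from separate cultures, so these p-values measure only the spread between these libraries. At 8 h in siFLuc cells, 4 of the 9 genes were higher under IFN and 1 was lower, while 5.77% of all genes tested were higher and 5.07% lower. With siFLuc at 12 h, 4 were higher and 0 lower, against 7.06% and 6.43% of all genes. With siBOP1 at 8 h, 3 were higher and 1 lower, against 5.99% and 9.11%. With siBOP1 at 12 h, 5 were higher and 0 lower, against 7.17% and 7.58%. Taking the mean of the 4 IFN effects, 5 of 9 were higher and 2 lower, against 13.0% and 29.0% of all genes. The median log2 fold change of the 9 genes in that mean was 0.46, and that of all genes tested was -0.10.

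Rescaling the libraries by median of ratios moved the all-gene median of the siBOP1 8 h comparison by 0.13 (log2) and the other 3 IFN comparisons by 0.05 to 0.08. Small falls are read against that shift below. Blocking on the column number raised the share of all genes called, in either direction, to 21.0% in siFLuc cells at 8 h, 26.9% in siFLuc cells at 12 h, 29.0% in siBOP1 cells at 8 h, 27.9% in siBOP1 cells at 12 h and 54.3% in the mean of the 4. Of the 9 genes 4 were then higher and 2 lower in siFLuc cells at 8 h, and 5 higher and 0 lower in siFLuc cells at 12 h. In siBOP1 cells 5 were higher and 2 lower at 8 h, against 3 and 1 without the block, and 6 were higher and 1 lower at 12 h. In the mean 6 were higher and 2 lower. In siBOP1 cells at 12 h the count of 5 became 3 when the mock library numbered 1, the mock library numbered 2, the IFN library numbered 2 or the IFN library numbered 4 was left out.

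**Figure D2:**
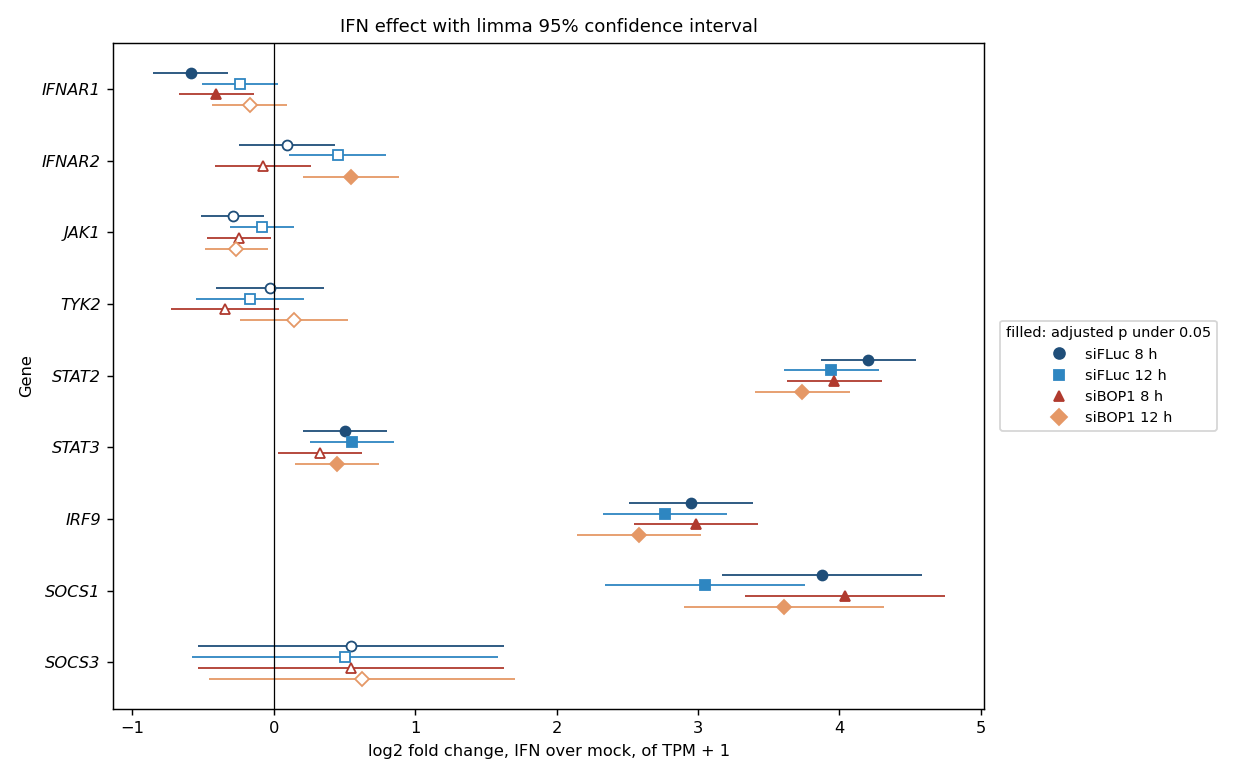
Horizontal axis, log2 fold change of TPM + 1 (IFN over mock) with limma's 95% interval; vertical axis, the 9 genes. Filled symbols passed an adjusted p of 0.05. STAT2, SOCS1 and IRF9 lie between 2.58 and 4.20 in the 4 comparisons, and the other 6 genes lie between -0.59 and 0.62.

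Gene identifiers are those of the table, and positions are from GENCODE 29 on GRCh38. This annotation places STAT2 (ENSG00000170581.14) on chromosome 12, 56341597 to 56360155, minus strand. IRF9 (ENSG00000213928.9) is on chromosome 14, 24161053 to 24166565, plus strand, and SOCS1 (ENSG00000185338.5) on chromosome 16, 11254405 to 11256200, minus strand. These 3 were the strongly induced genes, so their promoter sequences are described first. RefSeq promoter windows on GRCh38.p14, of 250 bases before and 50 after a transcript start, were found for 8 of the 9 genes, 12 windows in all. IFNAR2 had no entry. The windows were searched on both strands for the ISRE core GAAANNGAAA and the GAS core TTCNNNGAA, whose matches may overlap. Of all 35116 windows, 3.57% held the ISRE core and 7.66% the GAS core. Of the 8 genes with windows, 1 (SOCS1) held the ISRE core and 1 (IRF9) the GAS core. These counts and the next are per gene, and a gene can have several windows, so they are not on the scale of the shares per window. Of 43 other pathway genes with windows, 58 windows in all, 5 held the ISRE core and 8 the GAS core. Those with the ISRE core were NMI and the ligands IFNA1, IFNL1, IFNL2 and IFNL3, and none of these ligands was among the genes tested. Those with the GAS core were NMI, LIFR, CISH, IFNLR1, IL10RB, IFNA1, IFNB1 and IFNK. Of these, NMI and LIFR were higher under IFN in all 4 comparisons. The windows of STAT2, STAT3, JAK1, TYK2, SOCS3 and IFNAR1 held neither run of letters.

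The match in SOCS1 and that in IRF9 are printed because both genes were induced, with that in NMI, another induced gene of the pathway whose window held the ISRE core. The match is in capitals, 5′ to 3′ on the strand of the gene. The SOCS1 stretch is chr16:11256298-11256327, minus strand, with the match 113 to 104 bases before the transcript start, in an intron of RMI2 on the opposite strand. The NMI stretch is chr2:151289812-151289841, minus strand, with the match on the opposite strand 163 to 154 bases before the start in RefSeq, in an annotated untranslated exon of NMI. The IRF9 stretch is chr14:24161192-24161220, plus strand, with the match 63 to 55 bases before the RefSeq start, in an annotated 5′ untranslated exon of IRF9.
SOCS1: cgccaccgcgGAAAGAGAAAccaaaagtgg
NMI: ttaaagcagtTTTCTTTTTCactgtctttt
IRF9: accacgtgatTTCTGGGAAaaggccctcc
These matches are descriptions of the windows. No binding was measured.

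STAT2, the STAT that ISGF3 cannot do without, rose in all 4 comparisons. After siFLuc and 8 h it was 8.50, 8.42 and 5.61 TPM in the mock libraries numbered 1, 2 and 4, and 185, 157 and 126 TPM in the IFN libraries. At 12 h it was 10.6, 10.3 and 9.42 TPM in mock and 174, 181 and 157 TPM under IFN. In siBOP1 cells STAT2 was 10.9, 7.67 and 9.10 TPM in mock and 179, 171 and 128 TPM under IFN at 8 h. At 12 h in siBOP1 cells it was 12.1, 12.7 and 12.2 TPM in mock and 175, 203 and 156 TPM under IFN. Every IFN library was above every mock library, and the lowest IFN library was at 126 TPM against 12.7 TPM for the highest mock library. In each IFN group the library numbered 4 was the lowest of the 3. Fitted log2 fold changes of STAT2 (SE 0.16 each) were 4.20 at 8 h and 3.94 at 12 h with siFLuc, and 3.96 and 3.74 with siBOP1, with adjusted p from 1.5e-14 to 1.11e-13. The mean over the 4 was 3.96 (SE 0.08).

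IRF9, the DNA-binding part of ISGF3, rose in all 4 comparisons as well. With siFLuc at 8 h IRF9 was 21.2, 26.2 and 14.6 TPM in mock and 178, 151 and 159.7 TPM under IFN. At 12 h in siFLuc cells it was 24.8, 31.1 and 15.9 TPM in mock and 172, 147 and 171 TPM under IFN. With siBOP1 at 8 h it was 19.6, 22.8 and 22.3 TPM in mock and 171, 179 and 183 TPM under IFN. IRF9 in siBOP1 cells at 12 h was 23.01, 22.7 and 38.6 TPM in mock and 166, 155 and 186 TPM under IFN. The mock library numbered 4 was the lowest of its group in siFLuc cells at both times and the highest in siBOP1 cells at 12 h, and no mock library reached the IFN range. On the log2 scale IRF9 rose by 2.95 at 8 h and 2.77 at 12 h with siFLuc, and by 2.99 and 2.58 with siBOP1 (SE 0.21 for each), with adjusted p from 5.63e-10 to 6.63e-09. An overlapping gene on the same strand, AL136295.5, was at 0.678 to 4.17 TPM, and how reads shared by both were assigned is not given in the sources used here.

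SOCS1, the inhibitor of JAK kinases, was near the bottom of the measured range in mock cells and rose in all 4 comparisons. SOCS1 after siFLuc and 8 h was 0.263, 0.307 and 0.294 TPM in mock and 25.8, 16.2 and 13.7 TPM under IFN. At 12 h with siFLuc it was 0.731, 0.662 and 3.59 TPM in mock and 22.6, 23.8 and 11.8 TPM under IFN. With siBOP1 it was 0.425, 0.450 and 0.540 TPM in mock and 23.2, 26.4 and 20.3 TPM under IFN at 8 h. At 12 h with siBOP1 it was 0.431, 0.298 and 1.78 TPM in mock and 19.3, 23.9 and 17.4 TPM under IFN. At 12 h the libraries numbered 4 held the highest mock values and the lowest IFN values of both siRNAs. Mock and IFN libraries did not overlap. Fitted log2 fold changes of SOCS1 were 3.88 (8 h) and 3.05 (12 h) with siFLuc and 4.04 and 3.61 with siBOP1 (SE 0.34 for each), with adjusted p from 1.07e-08 to 9.03e-07. The pseudocount of 1 exceeds most mock values of SOCS1 and so understates its change: with a pseudocount of 0.1 the mean of the 4 log2 fold changes was 4.87, against 3.64. The ratio of mean TPM of SOCS1 in siFLuc cells was 64.5 at 8 h and 11.7 at 12 h, and 33.3 at 12 h without the libraries numbered 4. In siBOP1 cells it was 49.4 at 8 h and 24.1 at 12 h, and 59.4 at 12 h without them. RMI2, on the opposite strand around SOCS1, was at 17.8 to 39.7 TPM.

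STAT3 (ENSG00000168610.14; chromosome 17, 42313324 to 42388568, minus strand), which serves IL-6 family cytokines as well as interferon, was high in mock cells and rose moderately. STAT3 after siFLuc and 8 h was 71.5, 65.6 and 67.99 TPM in mock and 106, 91.8 and 94.6 TPM under IFN. At 12 h with siFLuc it was 74.5, 71.2 and 111 TPM in mock and 110.4, 120.05 and 143 TPM under IFN. In siBOP1 cells it was 97.01, 86.3 and 95.4 TPM in mock and 121, 115 and 114 TPM under IFN at 8 h, and 94.3, 89.3 and 119.6 TPM against 121, 134 and 158 TPM at 12 h. The groups were apart except in siFLuc cells at 12 h, where the mock library numbered 4 lay within the IFN range. Of the 12 differences between an IFN and a mock library of the same number, siRNA and time, all 12 were above 0, from 0.26 to 0.75 (log2). With siFLuc, STAT3 changed by 0.50 at 8 h (log2, adjusted p 0.0258) and by 0.56 at 12 h (0.0110). With siBOP1 the values were 0.33 (adjusted p 0.139) and 0.44 (0.0409), with SE 0.14 for each. The siBOP1 8 h value passed under the replicate block (adjusted p 0.0016), after median-of-ratios rescaling (0.48, 0.0023), without the libraries numbered 4 (0.36, 0.0141) and when only the groups compared were fitted (0.0279). The mean over the 4 was 0.46 (SE 0.07, adjusted p 2.9e-05).

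Single libraries decided several of these STAT3 calls. The siFLuc 8 h call was lost without any of the 3 mock libraries or the IFN library numbered 1 or 4, with adjusted p from 0.050 to 0.109. The siFLuc 12 h call was lost without the mock library numbered 1 or 2 or the IFN library numbered 4, with adjusted p from 0.0552 to 0.0735. The siBOP1 12 h call was lost without the mock library numbered 1 or 2 or the IFN library numbered 2 or 4, with adjusted p from 0.0907 to 0.167. When only the groups compared were fitted, adjusted p was 0.175 in siFLuc and 0.106 in siBOP1 cells at 12 h, and with no filter on low genes it was 0.0558 in siFLuc cells at 8 h and 0.0829 in siBOP1 cells at 12 h. Without the eBayes trend the siBOP1 12 h value had an adjusted p of 0.0572. In none of these did the sign of the STAT3 change turn.

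SOCS3 (ENSG00000184557.4; chromosome 17, 78356778 to 78360077, minus strand), the inhibitor best known from IL-6 family signalling, did not pass in any single comparison. After siFLuc and 8 h SOCS3 was 19.3, 18.3 and 29.6 TPM in the mock libraries numbered 1, 2 and 4 and 29.7, 29.3 and 39.1 TPM under IFN. At 12 h with siFLuc it was 19.8, 17.7 and 91.8 TPM in mock and 35.7, 32.2 and 83.4 TPM under IFN. With siBOP1 at 8 h it was 19.5, 18.7 and 22.8 TPM in mock and 27.5, 30.3 and 32.9 TPM under IFN. With siBOP1 at 12 h it was 17.03, 19.1 and 72.2 TPM in mock and 33.3, 38.2 and 71.1 TPM under IFN. Mock and IFN libraries were apart in siBOP1 cells at 8 h and overlapped in the other 3 comparisons. All 4 of the 12 h libraries numbered 4 lay above all other libraries, with either siRNA and with or without IFN. By number, IFN exceeded mock in 10 of 12 pairs of SOCS3 values. The 2 exceptions were the 12 h pairs numbered 4, at -0.14 in siFLuc and -0.02 in siBOP1 cells (log2), and the other 10 ran from 0.39 to 0.96.

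With siFLuc the log2 fold change of SOCS3 was 0.55 at 8 h (adjusted p 0.594) and 0.50 at 12 h (0.592), and with siBOP1 it was 0.55 (0.532) and 0.62 (0.492), with SE 0.52 for each. Blocking on the column number, the same changes had adjusted p of 0.0507, 0.0594, 0.0390 and 0.0210. Fitting only the groups compared, the siBOP1 8 h value had an adjusted p of 0.0199. Without the libraries numbered 4 they were 0.62, 0.82, 0.57 and 0.95, with adjusted p of 0.00106, 9.11e-05, 0.00175 and 2.61e-05. The mean over the 4 was 0.56 (SE 0.26, adjusted p 0.0924), and it passed with the block (adjusted p 0.000105) and without the libraries numbered 4 (0.74, adjusted p 1.24e-07). It also passed after median-of-ratios rescaling (0.65, adjusted p 0.0399). Leaving out the siFLuc mock 12 h library numbered 4 alone gave 0.74 (adjusted p 0.00764), and leaving out the siBOP1 mock 12 h library numbered 4 alone gave 0.72 (adjusted p 0.0163).

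**Figure D3:**
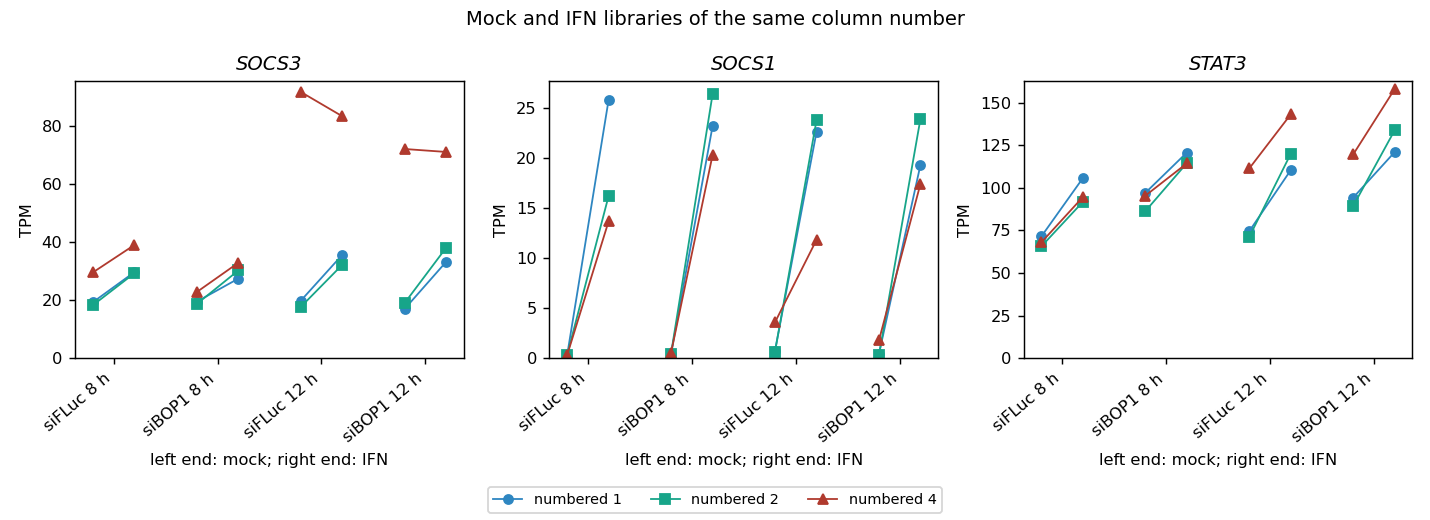
TPM (vertical axes, from 0) of SOCS3, SOCS1 and STAT3. Each line joins the mock library (left end) to the IFN library (right end) of the same siRNA, time and column number. For SOCS3 at 12 h the lines of numbers 1 and 2 climb from 17.03 to 19.8 TPM up to 32.2 to 38.2 TPM, and those of number 4 start at 72.2 and 91.8 TPM and end lower.

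Tested directly with limma, the libraries numbered 4 exceeded the mean of those numbered 1 and 2 at 12 h by 1.61 (log2) for SOCS3 (adjusted p 4.77e-07). The same difference was 0.40 for STAT3 (adjusted p 1.47e-05), 0.31 for IFNAR2 (0.0242) and 0.21 for JAK1 (0.00276). The others of the 9 did not pass at 12 h, where 40.3% of all genes tested did. At 8 h only STAT2 of the 9 genes passed, at -0.35 (adjusted p 0.00493), and SOCS3 was at 0.36 (0.0923). Of all genes tested 17.3% passed at 8 h.

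The receptor subunits moved in different ways. IFNAR1 (ENSG00000142166.13; chromosome 21, 33324477 to 33359862, plus strand) was lower under IFN at 8 h. After siFLuc and 8 h IFNAR1 was 25.6, 27.5 and 21.98 TPM in mock and 13.4, 18.9 and 16.9 TPM under IFN. After siBOP1 it was 25.7, 28.3 and 29.1 TPM in mock and 21.6, 19.1 and 21.3 TPM under IFN. The groups did not overlap at 8 h. At 12 h IFNAR1 was 25.9, 23.3 and 27.6 TPM in mock and 20.5, 18.95 and 25.6 TPM under IFN in siFLuc cells. In siBOP1 cells it was 32.3, 28.8 and 33.8 TPM against 25.7, 28.5 and 29.8 TPM. At 12 h the IFN and mock ranges overlapped with both siRNAs. Of the 8 groups siFLuc IFN 8 h had the lowest mean, 16.4 TPM, and did not overlap the next, siBOP1 IFN 8 h at 20.7, while siBOP1 mock 12 h had the highest, 31.6. The other neighbours in that order overlapped.

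The log2 fold change of IFNAR1 was -0.59 (SE 0.13, adjusted p 0.00357) in siFLuc cells at 8 h and -0.41 (SE 0.13, adjusted p 0.0363) in siBOP1 cells at 8 h. At 12 h it was -0.24 (adjusted p 0.248) and -0.17 (0.432). All 12 differences by number were below 0, from -0.88 to -0.02, and the mean over the 4 comparisons was -0.35 (SE 0.06, adjusted p 0.000164). After median-of-ratios rescaling that mean was -0.26 (adjusted p 0.00156), but the siBOP1 8 h value became -0.26 (adjusted p 0.186). The siBOP1 8 h call was also lost without the mock library numbered 2 or 4 or any one of the 3 IFN libraries (adjusted p 0.0578 to 0.147), without all libraries numbered 4 (0.0644), after quantile scaling (0.0669) and with no filter on low genes (0.0573). The siFLuc 8 h call was lost when only the groups compared were fitted (adjusted p 0.0692).

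IFNAR2 (ENSG00000159110.19; chromosome 21, 33229901 to 33265675, plus strand), the subunit that holds the STATs, stood near its mock level at 8 h and was highest under IFN at 12 h. After siFLuc and 12 h IFNAR2 was 14.4, 15.7 and 21.7 TPM in mock and 22.6, 20.4 and 28.5 TPM under IFN. After siBOP1 and 12 h it was 17.4, 17.6 and 18.6 TPM in mock and 22.4, 27.8 and 29.96 TPM under IFN. The ranges overlapped in siFLuc cells, through the mock library numbered 4, and not in siBOP1 cells. At 8 h IFNAR2 lay between 14.2 and 19.5 TPM in the 6 mock libraries and between 12.5 and 19.2 TPM in the 6 IFN libraries. The log2 fold change at 12 h was 0.45 (SE 0.16, adjusted p 0.0742; 0.0212 with the block) in siFLuc cells and 0.55 (SE 0.16, adjusted p 0.0277) in siBOP1 cells. Without the siFLuc mock library numbered 4 the siFLuc value was 0.62 (adjusted p 0.0147). The siFLuc value also passed after median-of-ratios rescaling (0.51, adjusted p 0.0211), after quantile scaling (0.47, 0.0207) and without all libraries numbered 4 (0.49, 0.0234). With the block, it thus passed in 4 of 9 settings other than leaving out 1 library. The siBOP1 12 h call was lost without the mock library numbered 1 or 2 or the IFN library numbered 2 or 4 (adjusted p 0.0772 to 0.0989), and with no filter on low genes (0.0526). The 2 IFN groups at 12 h had the highest means of the 8, at 23.8 and 26.7 TPM, and the lower of them did not overlap the next group, siFLuc IFN 8 h at 18.04 TPM.

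At 8 h the IFNAR2 changes were 0.09 with siFLuc and -0.08 with siBOP1 (adjusted p 0.801 for each), and the latter turned to 0.07 after median-of-ratios rescaling and 0.12 without the libraries numbered 4. The difference between the 12 h and 8 h effects of IFN on IFNAR2 was 0.62 (SE 0.23) in siBOP1 cells and 0.36 (SE 0.23) in siFLuc cells, with adjusted p of 1.00 in each. A readthrough gene on the same strand, AP000295.1, was at 1.91 to 8.39 TPM, and the assignment of reads it shares with IFNAR2 is not given in the sources used here.

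JAK1 (ENSG00000162434.13; chromosome 1, 64833229 to 64966504, minus strand) is the kinase bound to IFNAR2. In siFLuc cells JAK1 was 83.4, 73.6 and 82.3 TPM in mock and 67.8, 60.9 and 65.995 TPM under IFN at 8 h, and 85.8, 74.9 and 99.9 TPM against 79.3, 77.3 and 87.8 TPM at 12 h. In siBOP1 cells it was 81.2, 75.7 and 94.7 TPM in mock and 72.6, 64.3 and 74.1 TPM under IFN at 8 h, and 89.1, 97.1 and 102 TPM against 75.5, 75.1 and 88.9 TPM at 12 h. The JAK1 ranges overlapped only in siFLuc cells at 12 h. With siFLuc the log2 fold change of JAK1 was -0.29 at 8 h (adjusted p 0.0952) and -0.08 at 12 h (0.675), and with siBOP1 it was -0.25 (0.136) and -0.26 (0.109), with SE 0.11 for each. Under the block all but the siFLuc 12 h value passed (adjusted p 0.00396, 0.00931 and 0.00609), and under quantile scaling the same 3 did (0.0057, 0.0260 and 0.00686). After median-of-ratios rescaling none of the 4 passed, and the siBOP1 8 h value became -0.096 (adjusted p 0.524). The mean over the 4 was -0.22 (SE 0.05, adjusted p 0.00232), and -0.13 (adjusted p 0.0142) after median-of-ratios rescaling. RAVER2, an overlapping gene on the opposite strand, was at 4.40 to 7.23 TPM.

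TYK2 (ENSG00000105397.14; chromosome 19, 10350529 to 10380676, minus strand), the kinase bound to IFNAR1, passed in no IFN comparison. Its 12 mock libraries ranged from 21.4 to 38.3 TPM with a median of 30.9, and its 12 IFN libraries from 17.9 to 39.97 TPM with a median of 28.8. In siFLuc cells the TYK2 change was -0.03 at 8 h (adjusted p 0.963) and -0.17 at 12 h (0.617), and in siBOP1 cells -0.35 at 8 h (0.229) and 0.14 at 12 h (0.687), with SE 0.18 each. The siFLuc 8 h value turned to 0.06 after median-of-ratios rescaling. The 95% interval of the mean over the 4, -0.10, ran from -0.29 to 0.09. The TYK2 ranges did not overlap in siBOP1 cells at 8 h, where mock was 33.01, 26.7 and 29.6 TPM and IFN 24.4, 20.0 and 25.4 TPM.

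The other genes of the pathway came from a list of 54 in 6 roles, of which 45 were tested. Under IFN 7 of the 45 were higher and 3 lower in siFLuc cells at 8 h, beside 5.77% and 5.07% of all genes. In siFLuc cells at 12 h 7 were higher and 2 lower, beside 7.06% and 6.43%. In siBOP1 cells at 8 h 7 were higher and 6 lower, beside 5.99% and 9.11%. In siBOP1 cells at 12 h 8 were higher and 2 lower, beside 7.17% and 7.58%. In the mean of the 4 IFN effects 14 were higher and 10 lower, while 13.0% of all genes were higher and 29.0% lower, and the median log2 fold change over the 45 was 0.13. With the block, 9 were higher and 5 lower in siFLuc cells at 8 h and 13 and 5 at 12 h, where 21.0% and 26.9% of all genes passed. In siBOP1 cells 11 were higher and 10 lower with the block at 8 h and 13 and 7 at 12 h, against 29.0% and 27.9% of all genes, and in the mean 20 and 13, against 54.3%. There were 8 genes past the threshold in all 4 comparisons, and the share of all genes that did so was not counted. USP18, which displaces JAK1 from IFNAR2, ranged from 5.48 to 9.15 TPM in the 12 mock libraries (median 7.47) and from 159 to 248 TPM in the 12 IFN libraries (median 208). Its mean log2 fold change was 4.58 (SE 0.06). NMI, a STAT-binding protein, ranged from 28.02 to 42.2 TPM in mock (median 32.1) and from 150.5 to 211 TPM under IFN (median 195), a mean log2 fold change of 2.51 (SE 0.05).

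Of the IL-6 family receptor subunits listed, LIFR and OSMR passed in all 4 comparisons, while IL6ST, the shared signalling subunit, IL6R and IL11RA passed in none. In the mean of the 4, IL6ST was at 0.19 (adjusted p 0.0766), IL11RA at 0.19 (0.300) and IL6R at -0.29 (0.0577), and with the block IL6ST was called higher (adjusted p 0.0206) and IL6R lower (0.0222). These 3 were chosen after their values were seen. LIFR, the leukaemia inhibitory factor receptor, had a mean log2 fold change of 1.98 (SE 0.12), from 1.95 to 4.70 TPM in mock libraries to 7.11 to 20.3 TPM under IFN. OSMR, the oncostatin M receptor, changed by 0.65 (SE 0.07), with 72.6 to 113 TPM in mock and 107 to 195 TPM under IFN. JAK2, which serves IL-6 family and interferon gamma receptors, changed by 1.48 (SE 0.09), from 3.56 to 6.99 TPM in mock to 11.8 to 18.3 TPM under IFN. STAT6, the STAT of IL-4 signalling, changed by 1.04 (SE 0.05), with 37.5 to 62.3 TPM in mock and 74.3 to 143 TPM under IFN.

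Of the listed pathway genes tested, 2 were lower in all 4 comparisons. PIAS2, a SUMO ligase that binds STATs, fell by 0.66 on the log2 scale (SE 0.09), with 5.78 to 9.44 TPM in mock and 2.97 to 5.96 TPM under IFN. PTPN11, a tyrosine phosphatase, fell by 0.53 (SE 0.06), with 54.6 to 76.7 TPM in mock and 39.1 to 51.2 TPM under IFN. Mock and IFN libraries overlapped for OSMR and PIAS2 and not for USP18, NMI, LIFR, JAK2, STAT6 or PTPN11.

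The counts by role in the mean of the 4 IFN effects stand against 13.0% of all genes higher and 29.0% lower. By role, 6 of 11 receptor subunits of related cytokines were higher and 0 lower. Of 5 other JAK and STAT genes tested, 3 were higher and 2 lower. Of 5 other SOCS genes tested, 0 were higher and 2 lower. Of 12 phosphatases, PIAS proteins and other negative regulators, 2 were higher and 4 lower, and of 9 nuclear import and coactivator genes 2 were higher and 2 lower. Of 10 ligands 3 were tested and 1 was higher. The other 7 were below the filter. Among them IFNB1, IFNA1 and IFNK were at most at 0.294 TPM in any library. The interferon lambda genes were detected in every IFN library, at 0.117 to 1.11 TPM for IFNL1, 0.107 to 1.13 TPM for IFNL2 and 0.127 to 1.16 TPM for IFNL3, and all mock libraries were listed at 0 except 1 with IFNL1 at 0.099 TPM. IFNL2 and IFNL3 are near-identical copies, so how their reads were divided is uncertain, and none of the 3 was tested.

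**Figure D4:**
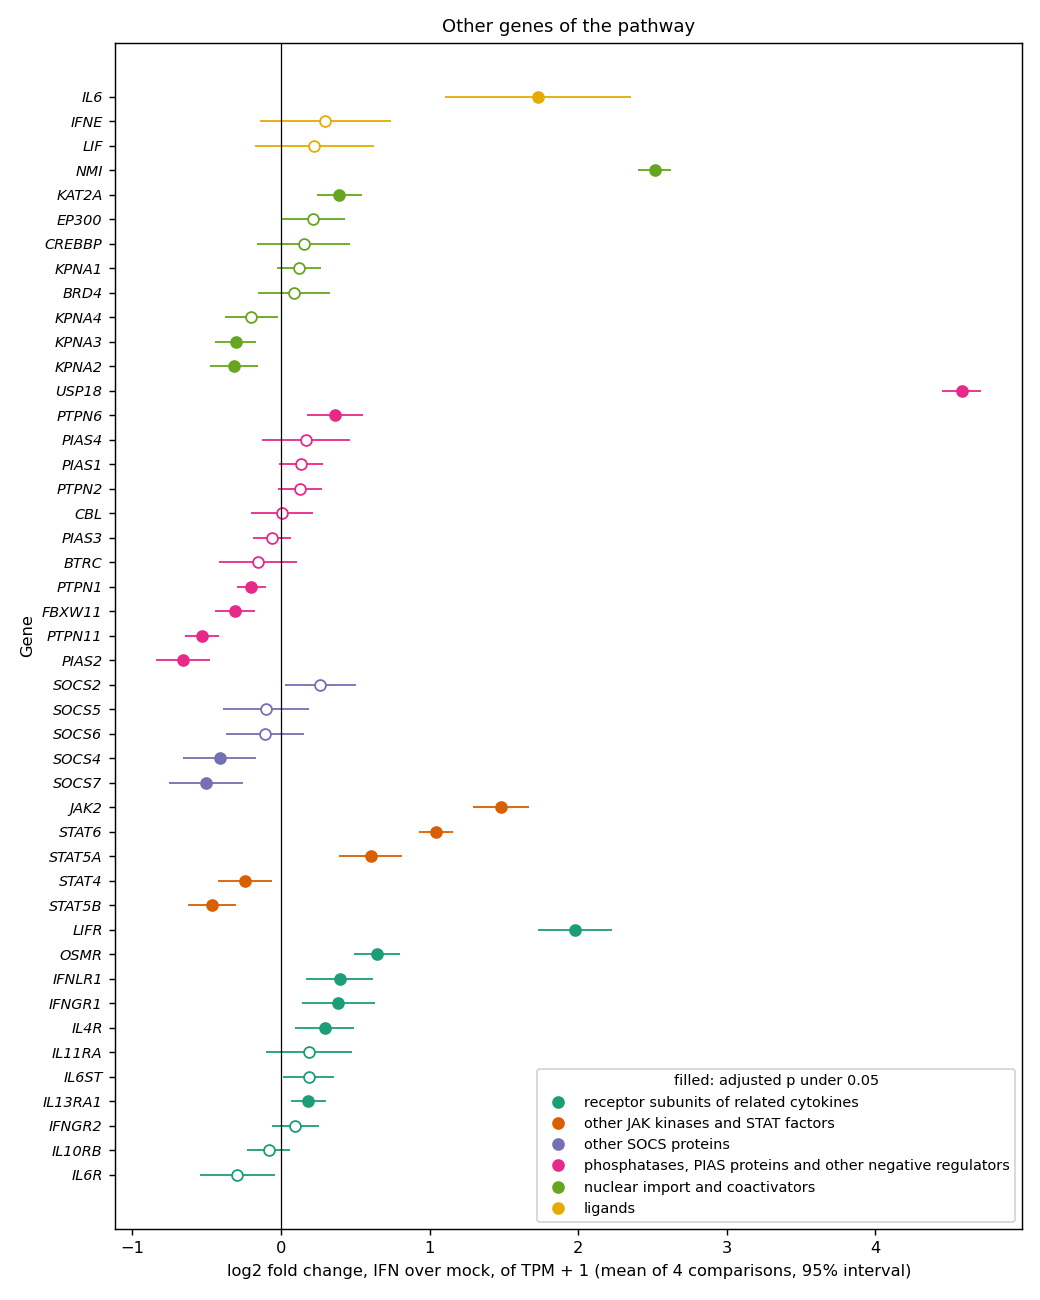
Horizontal axis, mean of the 4 log2 fold changes of TPM + 1 (IFN over mock) with limma's 95% interval; vertical axis, the 45 other pathway genes tested, coloured by role. Filled symbols passed an adjusted p of 0.05. USP18 at 4.58 and NMI at 2.51 lie farthest to the right, and PIAS2 at -0.66 farthest to the left.

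The next question was whether the BOP1 siRNA pool changed the signalling genes. None of the 9 passed in any of the 4 single comparisons of siBOP1 with siFLuc, where the shares of all genes tested that were higher and lower were 1.49% and 0.666% in mock cells at 8 h and 0.903% and 0.697% in mock cells at 12 h. In IFN-treated cells 1.25% were higher and 0.760% lower at 8 h, while 0.392% were higher and 0.268% lower at 12 h. With the block, 1 gene of the 9 (STAT3) passed in mock cells at both times and in IFN-treated cells at 8 h, while none passed in IFN-treated cells at 12 h. The block's shares of all genes were 8.49% and 7.66% for mock cells at 8 h and 12 h, and 8.81% and 3.77% for IFN-treated cells. In the mean of the 4 effects, which draws on all 24 libraries, IFNAR1 and STAT3 were higher in siBOP1 cells, while 16.9% of all genes tested passed in either direction. With the block 3 passed, against 29.7% of all genes. The median over the 9 genes was 0.07 and over all genes 0.00.

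IFNAR1 was higher in siBOP1 cells by 0.28 (log2; SE 0.06, adjusted p 0.0038), and STAT3 by 0.27 (SE 0.07, adjusted p 0.0111). For each of them the siBOP1 library exceeded the siFLuc library of the same number, treatment and time in 12 of 12 pairs, by 0.01 to 0.65 for IFNAR1 and by 0.10 to 0.48 for STAT3. The single effects on IFNAR1 were 0.15 and 0.29 in mock cells at 8 h and 12 h and 0.33 and 0.36 under IFN. The groups of IFNAR1 were apart in 3 of these 4, all but mock cells at 8 h. The single effects on STAT3 were 0.44 (adjusted p 0.136), 0.25 (0.496), 0.26 (0.464) and 0.14 (0.897) in the same order, with block values of 0.000881, 0.0287, 0.0231 and 0.28. In mock cells at 8 h all 3 siBOP1 libraries, at 86.3 to 97.01 TPM of STAT3, were above all 3 siFLuc libraries, at 65.6 to 71.5 TPM. That single effect also passed after median-of-ratios rescaling (0.40, adjusted p 0.0439) and without the libraries numbered 4 (0.41, adjusted p 0.0359).

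**Figure D5:**
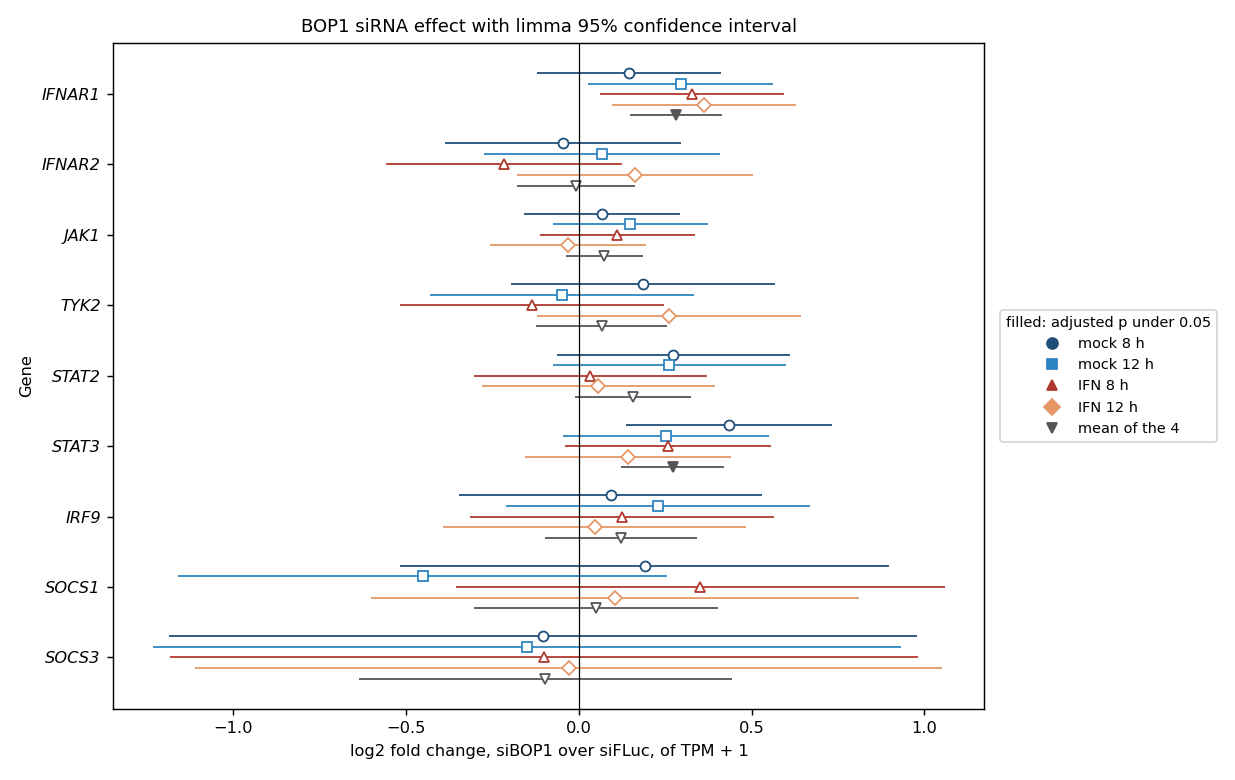
Horizontal axis, log2 fold change of TPM + 1 (siBOP1 over siFLuc) with limma's 95% interval; vertical axis, the 9 genes. Filled symbols passed an adjusted p of 0.05. The 2 filled symbols are the 4-comparison means of IFNAR1 (0.28) and STAT3 (0.27).

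For the strongly induced genes the mean siBOP1 effect was 0.16 for STAT2 (95% interval -0.01 to 0.33, adjusted p 0.208; 0.0295 with the block), 0.12 for IRF9 (-0.10 to 0.34, adjusted p 0.485) and 0.05 for SOCS1 (-0.30 to 0.40, adjusted p 0.886). Without the libraries numbered 4 the IRF9 value was -0.08. The SOCS1 mean joins unlike values in mock cells, where the pseudocount shrinks differences: the siBOP1 library was at 1.62, 1.47 and 1.84 times the siFLuc library of the same number at 8 h, and at 0.590, 0.450 and 0.497 times at 12 h. At 8 h the SOCS1 groups did not overlap, and at 12 h they did. The fitted SOCS1 effects in mock cells were 0.19 at 8 h (adjusted p 0.915) and -0.45 at 12 h (0.646). The other mean effects were -0.01 for IFNAR2, 0.07 for JAK1, 0.07 for TYK2 and -0.10 for SOCS3, with adjusted p from 0.396 to 0.967. Among the other pathway genes, 5 of 45 passed in the mean effect, beside 16.9% of all genes. The receptor subunits IL4R (0.30), IL10RB (0.28), IFNGR2 (0.27) and IL13RA1 (0.23) were higher in siBOP1 cells, with adjusted p of 0.0318, 0.00702, 0.0167 and 0.00634. PIAS3, a SUMO ligase that inhibits STAT3, was lower, at -0.23 (adjusted p 0.0102). With the block 6 were higher and 9 lower, beside 29.7% of all genes. None of the 45 passed in a single siBOP1 comparison without the block, where at most 1.49% of all genes were higher and at most 0.760% lower. With it, mock cells had 5 higher at 8 h, and 1 higher with 1 lower at 12 h, beside 8.49% and 7.66% of all genes. IFN-treated cells had 2 higher at 8 h and 0 called at 12 h, beside 8.81% and 3.77%.

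Whether the BOP1 siRNA pool altered the IFN response itself was tested by the interaction of siRNA and IFN. None of the 9 genes passed at 8 h or 12 h, and the share of all genes that passed was 0% at both times (353 and 259 of 16062 genes had an unadjusted p under 0.05). With the block 0 of the 9 and 0% of all genes passed as well. For STAT2 the difference of IFN effects, siBOP1 minus siFLuc, was -0.24 at 8 h (95% interval -0.72 to 0.24) and -0.20 at 12 h (-0.68 to 0.27). For IRF9 it was 0.03 (-0.59 to 0.65) and -0.18 (-0.80 to 0.44), and the latter was 0.28 without the libraries numbered 4. For SOCS1 it was 0.16 (-0.84 to 1.16) and 0.56 (-0.44 to 1.56). The SOCS1 value at 8 h was -0.19 with a pseudocount of 0.1, and that at 12 h was 0.21 without the libraries numbered 4. The adjusted p was 1.00 in each.

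The change of the IFN effect from 8 h to 12 h was not past the threshold for any of the 9 genes with either siRNA. Of all genes tested 0.00623% (1 gene) passed in siFLuc cells and 0% in siBOP1 cells, where 575 and 603 had an unadjusted p under 0.05. With the block 0.0249% of all genes (4 genes) passed with each siRNA, and 0 of the 9. With all libraries fitted, the largest change among the 9 in siFLuc cells was that of SOCS1, at -0.83 (SE 0.48, adjusted p 1.00). Without the libraries numbered 4 this SOCS1 value was -0.23, so its size and rank rest on them.

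Some genes followed the 9 closely over the 24 libraries. For each, the 3 genes outside the 9 with the highest Pearson r of log2(TPM + 1) were taken, as a description: the libraries share treatments, siRNAs and column numbers, and r is given with its value among the 12 mock and the 12 IFN libraries. STAT2 was followed by SHFL (r 0.997; 0.807 in mock and 0.754 under IFN) and TNFSF10 (0.997; 0.748 and 0.852), both interferon-induced. IRF9 was followed by HELZ2 (0.992; 0.793 and 0.251), PLSCR1 (0.990; 0.643 and 0.407) and IRF7 (0.989; 0.634 and 0.155). SOCS1 was followed by PRKD2 (0.990; 0.883 and 0.576), IRF1 (0.989; 0.947 and 0.476) and PPM1K (0.987; 0.769 and 0.739). For all of these 8 genes r was lower within mock and within IFN libraries than over all 24.

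SOCS3 was followed by GADD45A (r 0.962; 0.980 in mock and 0.932 under IFN), DDIT3 (0.953; 0.986 and 0.979) and MBP (0.947; 0.944 and 0.970). GADD45A and DDIT3 are stress-response genes. GADD45A, DDIT3 and MBP were chosen by likeness to SOCS3 over these libraries, so a peak shared with SOCS3 is no separate result. Like SOCS3, they were all highest in the 12 h libraries numbered 4. GADD45A was at 56.6 to 82.7 TPM there, against 13.7 to 42.1 in the other 20. DDIT3 was at 77.6 to 124 TPM against 6.98 to 18.7, and MBP at 27.3 to 38.6 TPM against 14.3 to 26.7. In the limma test of number 4 given above, 40.3% of all genes passed at 12 h, in either direction. The share of genes that were highest in those 12 h libraries was not counted. Whether stress-response genes as a set were higher in those 12 h libraries was not tested. Without those 4 libraries r was 0.880 for GADD45A, 0.869 for DDIT3 and 0.873 for MBP. STAT3 was followed by KBTBD2 (r 0.955; 0.952 in mock and 0.853 under IFN), PDIA4 (0.952; 0.907 and 0.915) and MAT2B (0.942; 0.894 and 0.898).

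IFNAR1 was followed by NDRG4 (0.896; 0.756 in mock and 0.874 under IFN), CAMLG (0.891; 0.771 and 0.866) and ABHD8 (0.884; 0.729 and 0.877). IFNAR2 was followed by ATXN3 (0.884; 0.782 and 0.881), TAX1BP1 (0.884; 0.732 and 0.895) and PLIN2 (0.841; 0.933 and 0.811). JAK1 was followed by FOXRED1 (0.919; 0.892 and 0.879), RAD21 (0.914; 0.901 and 0.934) and TGFA (0.901; 0.863 in each). TYK2 was followed by ANO8 (0.859; 0.836 and 0.868), DNMT3B (0.855; 0.845 and 0.884) and GOLGA6L5P (0.848; 0.825 and 0.856). Of the genes that followed these members, r was lower among mock than among IFN libraries for all but PLIN2, FOXRED1 and TGFA.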

How the data were processed

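The deposited table holds TPM values made by the authors for 24 libraries, and each column sums to 1000000. The aligner, quantifier, genome build and annotation are not given in the sources used here. Per the labels' protocols, TRIzol extraction was followed by column clean-up with DNase, and a stranded mRNA kit was used. TPM keeps no depth and is a share of a fixed total. The numbers of 16 columns match the labels. The other 8, 1 per group, end in 4 where the labels stop at 3, and each stands for its group without a replicate number. No column was left out.

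The 16062 of 60609 rows that reached 1 TPM in 3 or more libraries were fitted as log2(TPM + 1) in limma 3.58.1 (R 4.3.3; 1 mean per group, trended eBayes, Benjamini-Hochberg per comparison, threshold 0.05), after a test on simulated data. There were 14 comparisons. Alternatives changed the pseudocount (0.1), the filter (none, or a mean of 5 TPM), the scaling (quantile or median of ratios), the eBayes trend, the libraries fitted (the compared groups alone, 1 library left out, all numbered 4 left out) and the block (by column number). The comparison of libraries numbered 4 with the others was added after seeing the data.

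Same-numbered libraries deviated together: the correlation of deviations from group means was 0.115 to 0.508 over 24 values. For the numbers 1 and 2 alone it was -0.012 to 0.156 and passed 0.1 in 3 of 8 comparisons, all at 8 h, so at 12 h the pairing rests on the libraries numbered 4. Values with the block are given where they change a call of the 9 genes, and as counts for the other pathway genes.

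Named were the 9 genes, BOP1, the listed pathway genes past the threshold in all 4 IFN effects or in a siBOP1 effect or interaction, and the 3 genes most like each of the 9. A further gene is not reported here. Other genes named beside these were chosen after their values were seen. The genes and lists were chosen with earlier results of these data known.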

Additional observations from a re-analysis of the deposited data

How the results depend on the processing

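The number of the 9 genes past the threshold moved by over 1.5 times in these cases: siBOP1 IFN effect at 12 h, 5 to 3 with no filter and 3 to 5 when 1 library was left out; siBOP1 IFN effect at 8 h, 4 to 7 with the replicate block; siBOP1 against siFLuc in mock cells at 8 h, 0 to 1 with median-of-ratios rescaling, the replicate block and without the libraries numbered 4; and, with the replicate block, 0 to 1 in mock cells at 12 h and under IFN at 8 h. The block changed no call of STAT2, IRF9, SOCS1 or TYK2 under IFN. Signs turned only where the main value was not past the threshold. Under IFN, TYK2 in siFLuc cells at 8 h became 0.060 (median of ratios) and 0.000183 (quantile), with -0.18 to 0.22 when 1 library was left out. IFNAR2 in siBOP1 cells at 8 h became 0.066 (median of ratios), 0.022 (quantile) and 0.12 (without number 4), with -0.21 to 0.059 leaving out 1 library, and in siFLuc cells at 8 h -0.0031 to 0.19. JAK1 in siFLuc cells at 12 h ran from -0.19 to 0.020. In the mean siBOP1 effect, IFNAR2 became 0.0058 (quantile) and 0.086 (without number 4), with -0.039 to 0.034 leaving out 1 library, IRF9 -0.080 and SOCS3 0.0023 (both without number 4), SOCS3 -0.26 to 0.090 and SOCS1 -0.037 to 0.17 leaving out 1 library. In the interaction, IRF9 ran from -0.15 to 0.25 at 8 h and -0.39 to 0.073 at 12 h (0.28 without number 4), and SOCS1 at 8 h from -0.023 to 0.41 (-0.19 with a pseudocount of 0.1). The cause of these turns was not tested. Of 612 values of single genes under settings other than leaving out 1 library, 559 kept sign and side of the threshold. When 1 library was left out, 743 of 792 did. Depth is unknown, so counting error cannot be given. Fitting only the groups compared could not be done for the means of 4 effects, which use all 8 groups.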
